A study of Mus musculus with 2 samples.

Results

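The 9 genes described here, Neurod1, Neurod2, Neurod6, Tbr1, Fezf2, Bcl11b, Cux1, Cux2 and Foxp2, encode transcription factors used to tell apart the projection neurons of the cerebral cortex. They were taken by symbol from the 19465 genes of a mouse brain section profiled by Visium, an assay that counts molecules (UMIs, unique molecular identifiers) of probe-labelled transcripts at places of a spot array, and each was found as 1 row. The study compared a male mouse of the G2-3 line, which carries A53T alpha-synuclein, with a male wild-type mouse, both 6 months old, with 1 brain sample of each. Which promoter drives the transgene is not stated in the labels. The 2 samples hold the same count matrix byte for byte, so the data are 1 library, no genotype is assigned to it, and genotypes were not compared. Every value below is from 1 section with no replicate check, intervals are 95% intervals that cover counting error only, exact except those of mean depth, and no test between conditions was possible.

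Projection neurons of the cortex are glutamatergic cells that arise from the dorsal forebrain and settle in layers, later-born cells lying nearer to the surface. NeuroD genes encode basic helix-loop-helix factors that drive and maintain neuronal differentiation, and Tbr1, a T-box factor, acts early after the last division and helps set the identity of corticothalamic cells. Fezf2 and Bcl11b (Ctip2) act in neurons of deep layers that project below the cortex, Cux1 and Cux2 are homeodomain factors of upper-layer neurons, and Foxp2 marks corticothalamic cells of the deepest layers as well as several subcortical groups. Granule cells of the dentate gyrus, which form a densely packed sheet of the hippocampal formation, also use Neurod1, Neurod2 and Bcl11b.

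NeuroD factors bind E-boxes, short motifs written CANNTG, where N is any base. The 250 bases before the annotated start of each NeuroD gene are shown with these letters in capitals. The 3 genes belong to 1 family, and their levels in granule cell spots differed from those in cortex in different directions. Whether these bases have a part in that was not tested. They are from RefSeq on build GRCm38.p6, each read 5′ to 3′ on the minus strand, at chr2:79456637-79456886 for Neurod1, chr11:98329646-98329895 for Neurod2 and chr6:55681264-55681513 for Neurod6.
Neurod1: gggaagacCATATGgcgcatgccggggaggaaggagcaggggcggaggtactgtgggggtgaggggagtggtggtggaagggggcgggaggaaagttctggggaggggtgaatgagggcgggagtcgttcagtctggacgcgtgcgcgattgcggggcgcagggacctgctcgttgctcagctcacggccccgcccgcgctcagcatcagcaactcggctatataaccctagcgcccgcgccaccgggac
Neurod2: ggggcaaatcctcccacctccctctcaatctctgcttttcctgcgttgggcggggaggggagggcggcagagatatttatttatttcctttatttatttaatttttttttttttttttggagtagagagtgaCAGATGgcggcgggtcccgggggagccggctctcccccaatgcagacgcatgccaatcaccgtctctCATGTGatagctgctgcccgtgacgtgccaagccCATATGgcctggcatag
Neurod6: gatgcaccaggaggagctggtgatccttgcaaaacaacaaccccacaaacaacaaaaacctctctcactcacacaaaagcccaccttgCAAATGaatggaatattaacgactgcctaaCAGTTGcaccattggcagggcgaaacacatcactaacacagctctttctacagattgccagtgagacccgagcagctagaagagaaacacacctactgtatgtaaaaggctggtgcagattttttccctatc
The Neurod1 stretch holds 1 match, the Neurod2 stretch 3 and the Neurod6 stretch 2. Since the motif reads the same on both strands, 1 search covers both, and no match overlapped another. Among the 32851 stretches of the same length in the RefSeq table, 66.2% held at least 1 CANNTG and 12.2% held 3 or more. The form CAGATG, found before Neurod2, was present as such or as its reverse complement in 14.4%. GC content of the stretches was 67.6% for Neurod1, 52.8% for Neurod2 and 46.0% for Neurod6, against a median of 52.4% in the table. These matches describe the letters only, and nothing measured here bears on binding.

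The genes lie on 6 chromosomes. On GRCm38.p6, Neurod1 spans chr2:79452637-79456636, Neurod2 chr11:98325415-98329645 and Neurod6 chr6:55677818-55681263, each 4.23 kb or shorter. Tbr1 spans chr2:61802863-61814114, Fezf2 chr14:12338992-12346803 and Bcl11b chr12:107910403-108004145. Cux1 spans chr5:136248135-136567590, Cux2 chr5:121857962-122050415 and Foxp2 chr6:14901349-15441977. Probes bind within transcripts, and the number of probe pairs per gene is not known here, so levels are compared between regions for 1 gene and never between genes.

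The section had 2485 usable spots with 20997947 UMIs, a median of 6686 and a range of 1183 to 80174 per spot. Spots were clustered without these 9 genes and without 42 other transcription factors of cortical neurons, which gave 16 regions named here by 2 of their leading genes. The regions treated as cortex were Clec18a/Igfn1 along the outer side (206 spots), Myl4/Col5a1 beneath it (223 spots) and Ccn2/Nxph3, rich in markers of layer 6b (53 spots), together 482 spots with a median of 10894 UMIs. The C1ql2/Pcdh20 region (56 spots, median 30050.5 UMIs) had 10 of 11 dentate granule cell markers at least 2-fold above the other spots, and its spots are called granule cell spots. Subcortical regions with midbrain, thalamus or hindbrain markers numbered 6 and held 1013 spots with a median of 5535 UMIs. The other 6 regions entered none of these groups: an arc beneath the cortex (Gpr161/Pde11a), Penk/Adam33 and Tshz2/Pirt beside the cortex, Ddn/Thrsp above and beside the granule cell spots, Mgp/Igf2 at the meninges and Klk6/Trf in white matter. A spot holds several cells, and fewer cells of a type and less RNA per cell cannot be told apart in it.

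**Figure D1:**
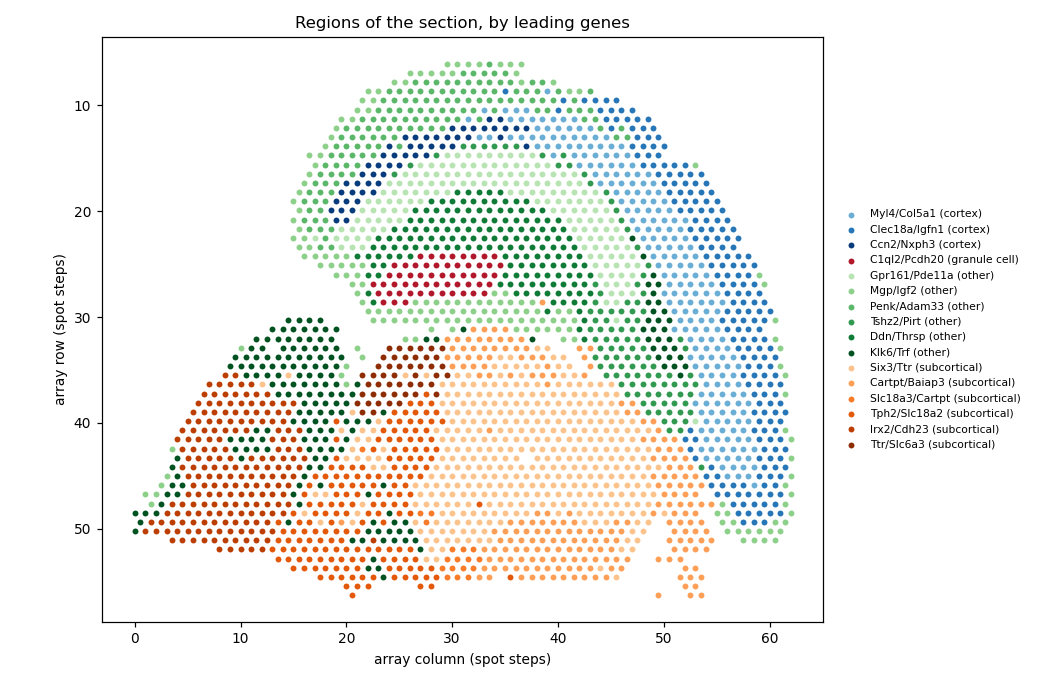
Map of the 2485 spots of the section, with array column and array row in steps between neighbouring spots on the axes and 1 colour for each of the 16 regions. Blue spots are the 482 of cortex, red spots are the 56 granule cell spots, orange to brown spots are the 1013 subcortical ones, and green spots belong to the other 6 regions.

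Counts of the 9 genes over the used spots ran from 75 UMIs for Bcl11b to 6854 for Neurod2. Neurod6 had 1085, Fezf2 1074, Cux1 2255, Cux2 438, Neurod1 282, Tbr1 276 and Foxp2 180 UMIs. Neurod2 had a UMI in 55.0% of spots and Cux1 in 50.4%, whereas Bcl11b had one in 2.82%. Values for Bcl11b, and for Foxp2 within cortex, therefore carry wide intervals.

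**Figure D2:**
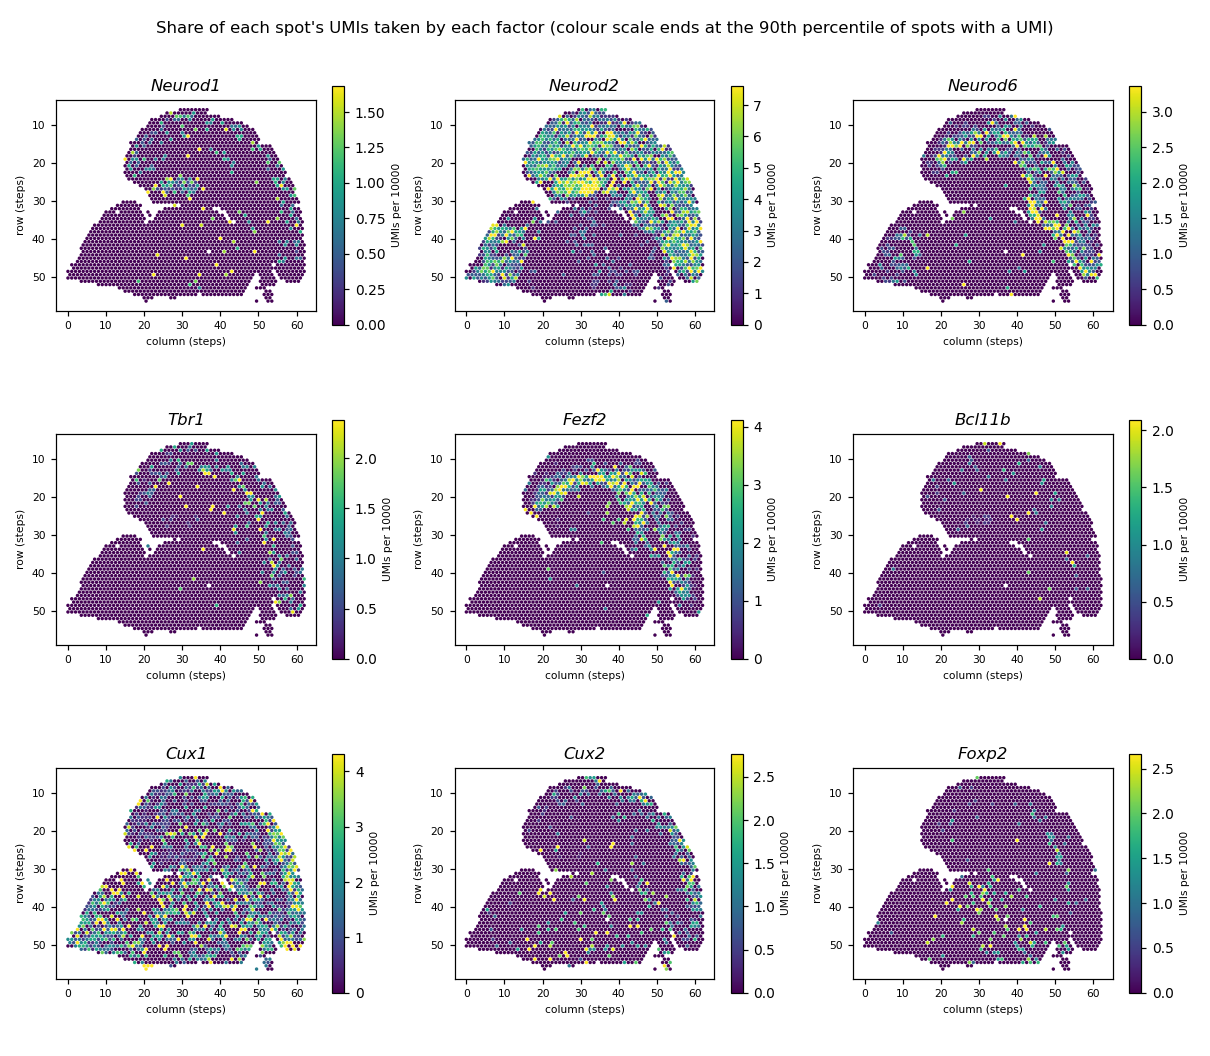
Maps of the 9 factors over the section, with array column and row in spot steps on the axes and colour for the UMIs of the gene per 10000 UMIs of the spot, capped at the 90th percentile of spots with a UMI. Neurod2 fills the cortex and granule cell spots and appears again in the Irx2/Cdh23 region at the lower left, Fezf2 lies mostly in deep cortex and the arc, and Foxp2 is scattered below the cortex.

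Within cortex the factors were ordered by depth, measured as steps from a spot to the outer edge of the tissue. Weighted by its UMIs per 10000, the mean depth was 2.71 steps for Cux2 (interval 2.51 to 2.91), 3.51 for Cux1 and 3.57 for Neurod1, against 4.50 for the spots themselves. Neurod2 followed at 4.62, Neurod6 at 5.20, Tbr1 at 5.33 and Fezf2 at 5.65. Bcl11b lay at 5.88 (5.18 to 6.58), from 22 UMIs, and Foxp2 deepest at 6.97 (6.53 to 7.42), from 42 UMIs. Neighbours in this order differed by more than counting error for Cux2 and Cux1 (0.80 steps), Neurod1 and Neurod2 (1.04), Neurod2 and Neurod6 (0.59) and Bcl11b and Foxp2 (1.09). Cux1 and Neurod1, Neurod6 and Tbr1, Tbr1 and Fezf2, and Fezf2 and Bcl11b could not be ordered at this depth of counting. In the lower array columns alone, Neurod1 (4.29) was shallower than Cux1 (4.54), and Bcl11b (5.40, 14 UMIs) shallower than Neurod2 (5.50). Fezf2 (5.75) was shallower there than Neurod6 (5.84) and Tbr1 (5.97). The higher columns kept the full order. Mean depth of the spots themselves was 5.18 steps in lower and 3.85 in higher columns.

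Levels by band of depth are given in CPM, the UMIs of a gene per 1000000 UMIs of the same spots. Cux2, the shallowest factor, stood at 85.0 CPM under 2 steps, 61.1 at 2 to 4, 18.4 at 4 to 6, 5.4 at 6 to 8 and had 0 UMIs in the 21 spots at 8 steps or more. Down to 8 steps its level was thus lower in each band than in the one above it by more than counting error, and between under 2 and 6 to 8 steps it differed 15.7-fold. Cux1 was as high at 2 to 4 steps (209 CPM, 187 to 233) as under 2 steps (207 CPM, 179 to 237), then lay at 79.6 CPM at 4 to 6 steps and 59.4 CPM at 6 to 8. Unlike Cux2 it kept a level throughout the deep bands, with 105 CPM (58.9 to 174) in the deepest. Neurod1, the NeuroD gene with the shallowest mean, had 20.5, 17.3, 11.6, 6.17 and 7.02 CPM from the first band to the deepest, where the last value is a single UMI. Under 2 and at 6 to 8 steps Neurod1 differed 3.32-fold, and neighbouring bands did not differ beyond counting error.

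Neurod2 was nearly even across the cortex, between 372 CPM under 2 steps and 467 CPM at 2 to 4 steps, with 414, 438 and 414 CPM in the deeper bands. It had a UMI in 454 of the 482 cortex spots, with a median of 3.56 UMIs per 10000 and a highest value of 26.0. Neurod6 was graded: 39.9, 88.9, 114 and 147 CPM over the first 4 bands, and 112 CPM (64.2 to 182) in the deepest. Down to 8 steps, each band exceeded the one above it by more than counting error. Among the 3 NeuroD genes of cortex, Neurod1 therefore had its highest value in the shallowest band, Neurod6 at 6 to 8 steps and Neurod2 at 2 to 4.

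Fezf2 stood at 9.22 CPM under 2 steps, 44.5 at 2 to 4, 115 at 4 to 6, 136 at 6 to 8 and 175 (114 to 259) in the deepest band. The band at 6 to 8 steps had 14.7 times the level of the shallowest, and the last 3 bands did not differ from one another beyond counting error. Foxp2 had 0 UMIs among the 976417 under 2 steps, and then 1.33, 4.90, 20.1 and 42.1 CPM. Its step from 4 to 6 up to 6 to 8 was 4.10-fold, later than that of Fezf2, which had come close to its deep level by 4 to 6 steps. Bcl11b had 0, 3, 8, 11 and 0 UMIs in the 5 bands.

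Tbr1 did not follow a single gradient. It had 28.7 CPM under 2 steps (28 UMIs, 19.1 to 41.4), 13.9 CPM at 2 to 4 (21 UMIs, 8.63 to 21.3), 36.7 at 4 to 6, 42.4 at 6 to 8 and 84.2 (43.5 to 147) in the deepest band. The band at 2 to 4 steps lay 2.06-fold under the shallowest band and 2.63-fold under the next deeper one, both beyond counting error. The dip was singled out after the values were seen.

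**Figure D3:**
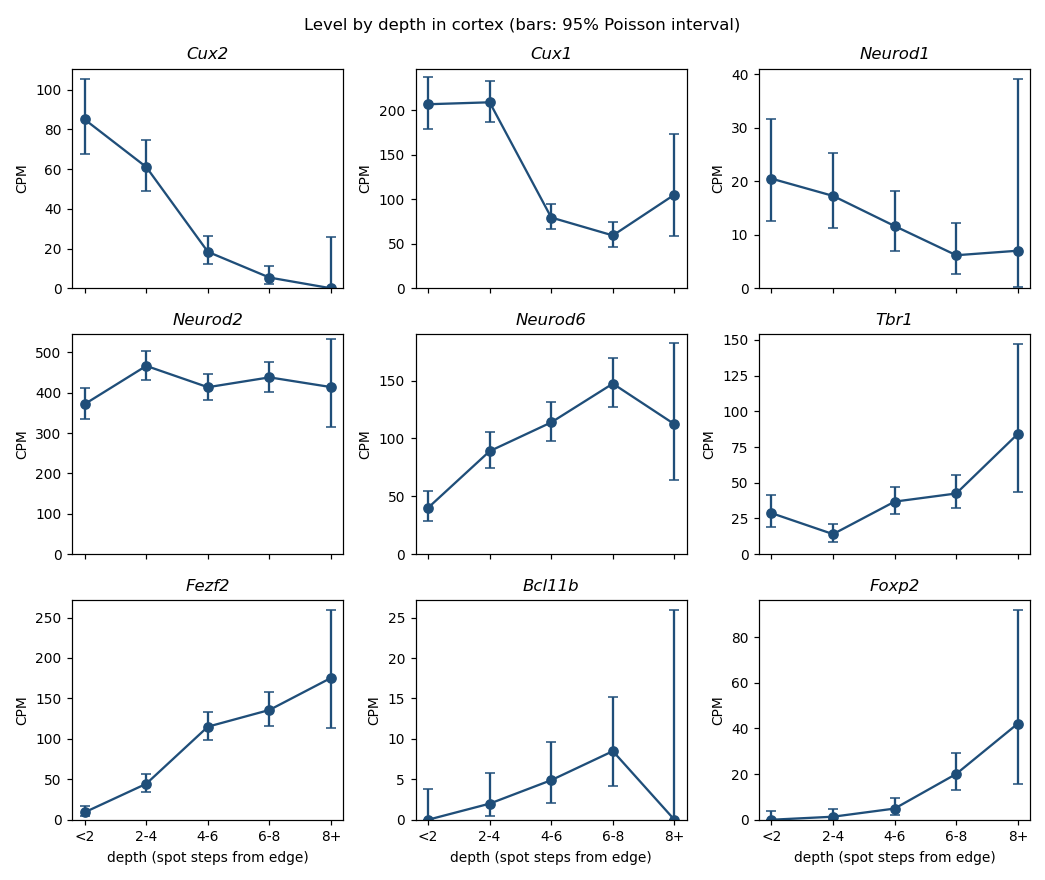
Level of each factor in cortex by depth, with steps from the tissue edge on the horizontal axis in 5 bands, CPM on the vertical axis, and bars for the exact 95% Poisson interval. Cux2 is lower in each deeper band down to 8 steps, Neurod2 stays between 372 and 467 CPM, Fezf2 and Foxp2 are highest in the deepest band, and Tbr1 dips at 2 to 4 steps.

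Splitting the cortex at the median depth of 4.36 steps gave 241 shallow and 241 deep spots. Of the 9 factors, 6 had at least 100 UMIs over both sides. Among these, Cux2 and Cux1 were at least 2-fold higher in shallow spots, where 1.85% of the 7465 genes with as many counts were, and Fezf2 and Tbr1 were at least 2-fold lower, where 1.58% were. Cux2 had 64.7 CPM in shallow and 7.04 CPM in deep spots, a log2 ratio of 3.20 (2.50 to 3.98). Cux1 had 191 and 64.6 CPM, a log2 ratio of 1.57 (1.32 to 1.83). Fezf2 had 41.3 and 133 CPM, a log2 ratio of -1.69, and Tbr1 21.0 and 44.2 CPM, a log2 ratio of -1.07. Neurod6 reached -0.87 and Neurod2 0.02, with an interval of -0.10 to 0.14. In the lower array columns alone, Cux1 and Fezf2 did not reach 2-fold, with log2 ratios of 0.93 and -0.77, whereas Neurod6 did, at -1.30. In the higher columns the log2 ratios of Cux1, Fezf2 and Neurod6 were 1.59, -2.40 and -0.42. With depth taken from marker genes in place of position, Tbr1 did not reach 2-fold, with a log2 ratio of -0.87. Below the count minimum, Neurod1 had 55 UMIs in shallow and 19 in deep spots, Foxp2 5 and 37, and Bcl11b 7 and 15.

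Other markers of the same spots moved with depth as well. The 10 upper-layer markers that are not among the 9 factors summed to 905 CPM in shallow and 299 CPM in deep spots, and the 12 deep-layer markers to 144 and 784 CPM. Markers of oligodendrocytes, the myelin-forming cells, summed to 1296 CPM in shallow and 3481 CPM in deep spots with 10 and all 11 of them present, and those of GABA neurons to 1618 and 2886 CPM. The part of these cells in the levels of the factors was not tested. Among the 42 other transcription factors, 34 had enough counts, of which 4 were at least 2-fold higher in shallow spots and 3 in deep spots. The 4 shallow ones were Bhlhe22, Pou3f2, Mkx and Rorb, a nuclear receptor of layer 4, with log2 ratios of 1.84, 1.46, 1.28 and 1.21. Lmo3, Nr4a2 and Tle4 were the 3 deep ones, at -2.08, -1.73 and -1.27. Nr4a2 is a marker of layer 6b and Tle4 of corticothalamic cells. The median over the 34 factors was 0.20, and over all genes with enough counts 0.01.

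The 3 cortical regions, clustered without these genes, regroup the same 482 spots and are not a separate check of the order by depth. Median depth was 2.65 steps in Clec18a/Igfn1 and 6 in Myl4/Col5a1, and the regions divided the factors in the same manner. Between Clec18a/Igfn1 and the inner Myl4/Col5a1 region, Cux2 had 70.4 and 11.4 CPM and Cux1 208 and 72.1 CPM, whereas Fezf2 had 29.3 and 143 CPM and Tbr1 20.5 and 44.3 CPM. Foxp2 had 1 UMI in Clec18a/Igfn1 and 35 in Myl4/Col5a1, and Bcl11b 1 and 16. Of the 7029 genes tested between these regions, 1.54% were at least 2-fold higher in Myl4/Col5a1 and 1.61% at least 2-fold lower. In the Ccn2/Nxph3 region, Neurod6 reached 184 CPM, 1.72 times its level in Myl4/Col5a1. Fezf2 was lower there than in Myl4/Col5a1, at 101 CPM (log2 ratio -0.51, -0.89 to -0.14), and Cux1 was at 44.9 CPM. Tbr1 had 34.0 CPM and Foxp2 8.16 CPM there, neither different from Myl4/Col5a1 beyond counting error. Between these regions 1.34% of the 5438 genes tested were at least 2-fold higher in Ccn2/Nxph3 and 3.57% at least 2-fold lower.

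Exclusion between factors was read from spots with a UMI of each. Since deep spots would show both of a pair more often, each spot was thinned to 5000 UMIs, which kept 468 of the 482 cortex spots, and the number of spots with both genes was set against the number given by independence. Of the 36 pairs, 20 were found together less often than that, with a median ratio of 0.996. No share over pairs of other genes is at hand, so this count is not a result about these factors. Fezf2 and Cux2, markers of deep subcerebral and upper callosal neurons, met in 10.4 spots where 21.6 were given, a ratio of 0.48. Tbr1 and Cux2 had a ratio of 0.66, Neurod6 and Cux2 0.73 and Fezf2 and Cux1 0.82. Ratios of 0 for Neurod1 with Foxp2, 0.28 for Neurod1 with Bcl11b and 0.38 for Cux2 with Foxp2 rest on 3.02 or fewer spots given by independence. At the other end, Fezf2 met Bcl11b at 1.82, from 5.24 spots where 2.88 were given, Foxp2 at 1.51 and Tbr1 at 1.10, and Cux2 met Neurod1 at 1.36 and Cux1 at 1.35. Neurod2, present in most spots, had ratios from 0.99 to 1.04 with the other 8.

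Within bands of depth most of these ratios lay nearer to 1. When the number given by independence was computed within each band and summed, Fezf2 with Cux2 moved from 0.48 to 0.81, Tbr1 with Cux2 to 0.86, Neurod6 with Cux2 to 0.93 and Fezf2 with Cux1 to 0.97. Cux1 with Cux2 moved from 1.35 to 1.08, Fezf2 with Foxp2 to 0.96 and Fezf2 with Bcl11b to 1.46, with 3.58 spots given. Cux2 with Foxp2 turned from 0.38 to 1.42, with 0.81 spots given. A further count required 2 UMIs of each gene in unthinned spots. Its numbers given by independence were taken over all 482 cortex spots and not within bands, so they do not allow for depth. Fezf2 was found in 117 spots and Cux2 in 49 of the 482, and both in 1 spot where 11.9 were given. Neurod6, found in 138 spots, met Cux2 in 5 where 14.0 were given, and Cux1, found in 166, met Cux2 in 36 where 16.9 were given. Tbr1, found in 29, met Cux2 in 4 where 2.95 were given, a ratio of 1.36 against the 0.66 of the thinned spots. Also without bands, cortex spots with Fezf2 had 20.2 CPM of Cux2 and those without it 55.4 CPM, a log2 ratio of -1.45. The median counts of these spots were 10778 and 11083 UMIs. The overlap of Fezf2 and Cux2 was thus partial at the scale of a spot.

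**Figure D4:**
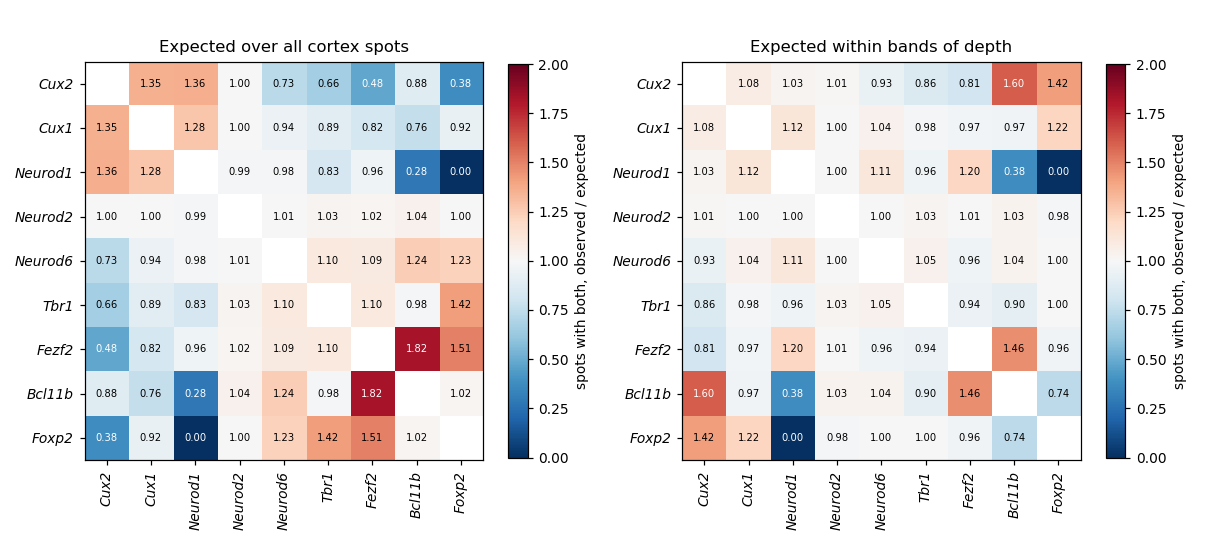
Spots with both of a pair of factors divided by the number given by independence, for the 36 pairs in 468 cortex spots thinned to 5000 UMIs, with the factors in order of mean depth on both axes. On the left, taken over all cortex spots, Fezf2 with Cux2 is at 0.48 and Cux1 with Cux2 at 1.35, and on the right, taken within bands of depth, they are at 0.81 and 1.08.

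In granule cell spots Neurod1 and Neurod2 had higher levels than in cortex, Neurod6, Fezf2 and Cux2 had 4 or fewer UMIs each, and Cux1 and Tbr1 lay between. Of the 7 factors with at least 100 UMIs over both groups, Neurod1 was at least 2-fold higher in granule cell spots, where 6.39% of the 8289 genes with as many counts were. Neurod6, Tbr1, Fezf2, Cux1 and Cux2 were at least 2-fold lower, where 13.1% of genes were. Neurod2 was higher by less than 2-fold on the CPM scale.

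Neurod1, which acts as granule cells are born and mature, had 101 UMIs and 56.4 CPM (46.0 to 68.6) in granule cell spots and 74 UMIs and 13.3 CPM in cortex, a log2 ratio of 2.08 (1.64 to 2.54). It had a UMI in 42 of the 56 spots, with 0 to 10 UMIs per spot. Granule cell spots thus held 101 of its 282 UMIs. Neurod2 had 733 CPM (694 to 774) against 426 CPM in cortex, a log2 ratio of 0.78 (0.68 to 0.88), and from 0 to 78 UMIs per spot with a median of 21.5. It had a UMI in 55 of 56 spots and was not even among them, with 599 CPM in the 28 spots of lower array columns and 862 CPM in the 28 of higher ones. Neurod1 had 59.4 and 53.6 CPM in the same spots, which did not differ beyond counting error. The 2 genes were found together in 41 of the 56 spots.

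Neurod6 had 0 UMIs among the 1790179 of the granule cell spots, where 3 counts would be 1.68 CPM, and 566 UMIs and 102 CPM in cortex. With the 3 counts taken over the group it was 60.8-fold lower, a log2 ratio of -5.93 with an upper interval limit of -5.62. Neurod2, the other NeuroD gene of high count, had 1313 UMIs in these spots. Fezf2 had 3 UMIs against 465 in cortex, a log2 ratio of -5.64 (-7.93 to -4.09), and Cux2 4 against 212, a log2 ratio of -4.09 (-5.98 to -2.72). Cux1 was lower but present, with 74 UMIs in 37 of 56 spots and 41.3 CPM against 133 CPM in cortex. On this scale it did not differ beyond counting error from the 44.9 CPM of Ccn2/Nxph3, the next region in its order. Tbr1 had 13 UMIs and 7.26 CPM against 31.7 CPM. Bcl11b, below the count minimum, had 16 UMIs and 8.94 CPM against 22 UMIs and 3.96 CPM in cortex, a log2 ratio of 1.17 (0.15 to 2.17). Foxp2 had 1 UMI.

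Since granule cell spots hold far more UMIs than cortex spots, these differences depend in size on the scale. Counted as UMIs per spot without scaling, Tbr1 and Cux1 no longer differed from cortex beyond counting error, with log2 ratios of -0.65 (-1.59 to 0.16) and -0.21 (-0.58 to 0.13). On that scale Neurod1 stood at 3.55 and Neurod2 at 2.25, so that Neurod2 too was past 2-fold. Cell type markers in the same spots summed to 5060 CPM for dentate granule cells, against 386 in cortex, and to 599 CPM for GABA neurons, against 2201 in cortex. Of the 12 measured GABA markers 10 were present, with Dlx1 and Sp9 at 0. Prox1 is on both lists and is counted in both sums. The part of these cell types in the levels of the factors was not tested. The neighbouring Ddn/Thrsp region had 10.1 CPM of Neurod1 and 338 CPM of Neurod2, log2 ratios of -2.47 and -1.12 over granule cell spots. Its Neurod6 was 9 UMIs and its Fezf2 16, against 0 and 3 in the granule cell spots it borders. Between these regions 11.3% of the 4833 genes tested were at least 2-fold higher in Ddn/Thrsp and 19.9% at least 2-fold lower.

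Of the other 42 transcription factors, 35 had enough counts between granule cell spots and cortex. Of these, 6 were at least 2-fold higher and 14 at least 2-fold lower, with a median log2 ratio of -0.53 against -0.01 for all genes. Zfpm2, Bhlhe22, Nfib and Bcl6 were highest, at 1.98, 1.78, 1.69 and 1.45. Tshz2 had 1 UMI against 508, and Sox5 stood at -3.95. Pou3f1 had 0 UMIs against 138, 14.8-fold lower with 3 counts taken over the group. Its log2 ratio was -3.89, with an upper interval limit of -3.57. Fezf2 and Cux2, which mark different layers in cortex, were thus each at 4 or fewer UMIs in granule cell spots.

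Below the cortex, the factors differed in how far they were missing. Of the 7 with enough counts, Neurod2, Neurod6, Tbr1, Fezf2 and Cux2 were at least 2-fold lower in the pooled subcortical spots than in cortex, where 6.87% of the 9837 genes tested were. Foxp2 was at least 2-fold higher, where 8.61% were. Fezf2 had 8 UMIs in 8 of 1013 spots and 1.21 CPM, a log2 ratio of -6.11 (-7.33 to -5.12), and Tbr1 6 UMIs in 6 spots and 0.91 CPM, a log2 ratio of -5.12 (-6.59 to -3.97). Neurod6 stood at -2.79, Neurod2 at -1.68 and Cux2 at -1.23. Neurod1, below the count minimum, had 20 UMIs and Bcl11b 5.

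Cux1 had 128 CPM in subcortical spots and 133 CPM in cortex, a log2 ratio of -0.05 (-0.19 to 0.09). Per spot and without scaling the log2 ratio was -0.87 (-1.02 to -0.73). Its levels in the 6 subcortical regions ran from 89.9 CPM (12 UMIs) in Slc18a3/Cartpt to 150 CPM in Irx2/Cdh23. Cux2 was also present in several of them, with 22.1 CPM in Cartpt/Baiap3, 21.9 in Six3/Ttr and 20.6 in Tph2/Slc18a2. The inner cortical Myl4/Col5a1 region had 11.4 CPM (7.38 to 16.8). Barcodes not marked as tissue had 143 CPM of Cux1, 34.4 CPM of Cux2 (22.0 to 51.2) and 18.6 CPM of Foxp2. Foxp2 had 121 UMIs and 18.3 CPM in subcortical spots and 42 UMIs and 7.56 CPM in cortex, a log2 ratio of 1.28 (0.76 to 1.82). It was highest in Ttr/Slc6a3 at 44.1 CPM (9 UMIs), then in Six3/Ttr at 30.8 (59 UMIs) and Cartpt/Baiap3 at 28.2 (37 UMIs), which did not differ from one another beyond counting error. Per spot and without scaling, the log2 ratio of Foxp2 was 0.46 (-0.06 to 1.00). Oligodendrocyte markers summed to 13514 CPM in subcortical spots and 2301 CPM in cortex from 7806 to 18156 over the 6 subcortical regions and from 1263 to 3747 over the 3 cortical ones. Their part in these levels was not tested.

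The Irx2/Cdh23 region, with Hox, Irx2 and Barhl1 markers of pons and hindbrain, stood apart from the other subcortical regions in its NeuroD genes. Over its 189 spots, Neurod2 had 736 UMIs and 349 CPM (324 to 375), 10.9-fold above the 32.1 CPM of the other 5 subcortical regions with a log2 ratio of -0.29 over cortex (-0.41 to -0.17). It had a UMI in 159 of 189 spots and up to 31 in 1 spot. Neurod6 had 73 UMIs in 57 spots and 34.6 CPM, 6.46-fold above the other subcortical regions with a log2 ratio of -1.56 over cortex. Neurod2 was higher in the lower array columns of the region (379 CPM) than in the higher ones (305 CPM), whereas Neurod6 had 27.3 and 45.0 CPM, both beyond counting error. This region was singled out after its values were seen.

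Most of the other factors were at or near 0 in Irx2/Cdh23. Neurod1, Tbr1 and Fezf2 had 0 UMIs in the 2110459 of the region, where 3 counts would be 1.42 CPM, Foxp2 had 1, Bcl11b 2 and Cux2 11. For Fezf2, 0 of 189 spots allows a share of spots with a UMI of up to 1.93%. Cux1 had 317 UMIs and 150 CPM (134 to 168). In this comparison 3.2% of the 8281 genes tested were at least 2-fold higher in Irx2/Cdh23 than in the other subcortical regions and 6.11% at least 2-fold lower. Against cortex, the shares were 7.23% and 11.5% of 8483 genes. The nearest spot of a cortical or hippocampal region lay 12.1 steps away. In the other 5 subcortical regions, Neurod2 stood at -3.73, Neurod6 at -4.25, Cux2 at -0.83 and Foxp2 at 1.82 (1.31 to 2.37) over cortex on the log2 scale, where 8.52% of the 9374 genes tested were at least 2-fold higher and 6.62% at least 2-fold lower. Among them, Neurod2 had 63.2 CPM (46.2 to 84.3) within 5 steps of such spots and 26.1 CPM (21.2 to 31.8) beyond, and Neurod6 12.4 and 3.99 CPM. Foxp2 had 17.9 CPM (9.51 to 30.5) within 5 steps and 28.5 CPM (23.3 to 34.4) beyond.

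Of the other 42 transcription factors, 36 had enough counts between subcortical spots and cortex, of which 18 were at least 2-fold lower and 1, Pax6, at least 2-fold higher. Their median log2 ratio was -1.02, against 0.08 for all genes. Emx1, a factor of the dorsal forebrain, stood at -5.31 and Mef2c at -4.44. Pax6 stood at 1.53, Nfia at 0.65, Zfpm2 at 0.58 and Nr2f2 at 0.16.

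**Figure D5:**
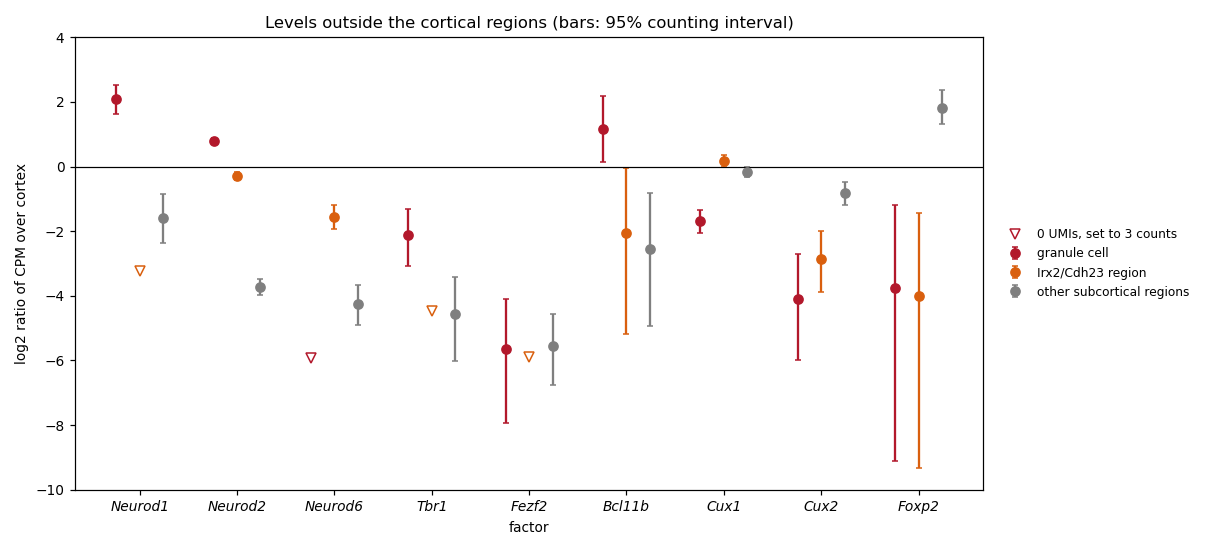
Log2 ratio of CPM over cortex on the vertical axis for each factor in granule cell spots, in the Irx2/Cdh23 region and in the other subcortical regions, with bars for the 95% counting interval and open triangles where 0 UMIs were set to 3 counts. Neurod1 and Neurod2 lie above 0 in granule cell spots, Neurod2 is near 0 in Irx2/Cdh23, Fezf2 is below -5 in each of the 3 groups, and Foxp2 is above 0 in the other subcortical regions.

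Regions beside the cortex also differed in single factors. Fezf2 was highest of all regions in the Gpr161/Pde11a arc, with 447 UMIs and 241 CPM (220 to 265), a log2 ratio of 1.53 over cortex (1.34 to 1.72), where 1.68% of 8277 genes were at least 2-fold higher. It had a UMI in 134 of the 160 spots of the arc, and 250 and 232 CPM in its lower and higher array columns. Cux2 (5.94 CPM), Tbr1 (9.72 CPM) and Cux1 (52.4 CPM) were each at least 2-fold lower in the arc than in cortex, where 3.23% of genes were, and Neurod2 (456 CPM) and Neurod6 (85.3 CPM) did not differ beyond counting error. Ammon horn markers summed to 4177 CPM in the arc and 1473 CPM in cortex. In the arc, 8 hippocampal and 6 cortical markers stood at a log2 fold of 1 or higher over the remaining spots. They included Mpped1, Pex5l, Cpne7, Spink8 and Nnat of the Ammon horn list. Parm1, Bcl6, Tshz2 and Npr3 were of the layer 5 list and Dlk1, Teddm3 and Bcl6 of the subiculum list, with Bcl6 on both. Neurod6 was highest in Tshz2/Pirt, with 192 CPM, next to the 184 CPM of Ccn2/Nxph3, and these 2 did not differ beyond counting error. Over cortex, Neurod6 had a log2 ratio of 0.92 there (0.65 to 1.17), Tbr1 -0.90, Neurod2 -0.24 and Fezf2 -0.02, and 1.92% of the 7899 genes tested were at least 2-fold higher and 2.67% at least 2-fold lower. In Penk/Adam33, Cux1 and Cux2 had 71.0 and 23.8 CPM, log2 ratios of -1.55 and -1.56 over Clec18a/Igfn1. Neurod6 was at -1.08, while Neurod1, with 21.6 CPM, did not differ beyond counting error. Of the 7006 genes tested there, 2.17% were at least 2-fold higher and 3.2% at least 2-fold lower. Within Penk/Adam33, Cux2 had 13.1 CPM in the lower array columns and 40.9 in the higher ones, and Fezf2 34.3 and 8.19 CPM. A single spot held 15 of the 54 Fezf2 UMIs of this region.

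Over the 16 regions in order of level, each factor had its own sequence of regions. Neurod1 led in granule cell spots (56.4 CPM), followed by Penk/Adam33 (21.6), Clec18a/Igfn1 (18.6), Ccn2/Nxph3 (13.6), Ddn/Thrsp (10.1) and the arc (9.72), and it had 0 UMIs in Irx2/Cdh23 and Ttr/Slc6a3. Below the first, no neighbours in its order differed beyond counting error. Neurod2 also led in granule cell spots, then in the arc (456), Clec18a/Igfn1 (439), Ccn2/Nxph3 (427) and Myl4/Col5a1 (411), which as neighbours did not differ beyond counting error. It had 360 CPM in Tshz2/Pirt, 349 in Irx2/Cdh23, 339 in Penk/Adam33 and 338 in Ddn/Thrsp. A clear step separated these from Mgp/Igf2 (159), and another that from Klk6/Trf (65.7) and Cartpt/Baiap3 (59.6), ahead of Six3/Ttr (25.6), Ttr/Slc6a3 (24.5), Tph2/Slc18a2 (13.0) and Slc18a3/Cartpt, which had 0 UMIs. Neurod6 had 107 CPM in Myl4/Col5a1, 85.3 in the arc and 74.9 in Clec18a/Igfn1 after its 2 highest regions, then 35.5 in Penk/Adam33, 34.6 in Irx2/Cdh23 and 15.2 or less in the other 9.

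Among the factors of deep layers, Tbr1 was highest in the 3 cortical regions, followed by Tshz2/Pirt (17.0) and Penk/Adam33 (14.4). It had 0 UMIs in Slc18a3/Cartpt, Tph2/Slc18a2, Irx2/Cdh23, Klk6/Trf and Ttr/Slc6a3, and no neighbours in its order differed beyond counting error. Fezf2 had 241 CPM in the arc, 143 in Myl4/Col5a1, 101 in Ccn2/Nxph3 and 82.7 in Tshz2/Pirt, and then 29.3 in Clec18a/Igfn1, 27.1 in Ddn/Thrsp and 24.3 in Penk/Adam33. Steps beyond counting error lay after the arc, after Myl4/Col5a1, after Tshz2/Pirt and after Penk/Adam33. Bcl11b ran from 8.94 CPM in granule cell spots through 7.30 in Myl4/Col5a1, 7.29 in Tshz2/Pirt and 6.80 in Ccn2/Nxph3 to 0 UMIs in 5 regions, with no neighbours that differed beyond counting error. Foxp2 had 44.1 CPM in Ttr/Slc6a3 and 0.38 CPM in Clec18a/Igfn1, its lowest value, and its neighbours differed only between Cartpt/Baiap3 and Myl4/Col5a1 (16.0), which was followed by Tph2/Slc18a2 (15.2).

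Of the factors of upper layers, Cux1 led in Clec18a/Igfn1 at 208 CPM, above the 150 CPM of Irx2/Cdh23. Its levels then lay close together, with 128 CPM in Cartpt/Baiap3, 118 in Mgp/Igf2 and 109 in Tshz2/Pirt, and below the first step its neighbours differed only between Penk/Adam33 and the arc. Cux2 had 70.4 CPM in Clec18a/Igfn1, above the 32.8 CPM of Tshz2/Pirt, and no lower neighbours differed beyond counting error. It was lowest in Ccn2/Nxph3 (2 UMIs) and granule cell spots (4 UMIs). The region with the highest level of Neurod6, Tbr1 and Foxp2 varied with the clustering or the scale.

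Genes with the most similar pattern over the 16 regions were found by Pearson's r of log2(CPM + 10) among 11003 genes, as a description, since the regions share 1 library and differ in depth. For Neurod2 they were Slc17a7, the vesicular glutamate transporter of cortical neurons (r = 0.97), Zbtb18 (0.94) and Baiap2 (0.93), and Neurod6 was nearest to Rasgrp1 (0.95), Khdrbs3 (0.95) and Plcl2 (0.90). For Fezf2 they were Cort, which encodes the peptide cortistatin (0.93), Khdrbs3 (0.91) and Dlx6 (0.90), and for Tbr1 Kcnmb4 (0.93), Tmem121b (0.92) and Lhx6 (0.91). Cort, Dlx6 and Lhx6 are known from interneurons. Neurod1 was nearest to Acot3 (0.93), Bcl11b to St6galnac5 (0.89), Cux1 to Cdk2ap1 (0.81), Cux2 to Plxdc1 (0.76) and Foxp2 to Lor (0.88). Gad2, a GABA-synthesising enzyme, was also among the 3 nearest to Foxp2 (0.84). Baiap2 and Gad2 were among the genes used to find the regions. Among the 9 factors themselves, Neurod6 and Fezf2 had the highest r (0.86), followed by Tbr1 and Fezf2 (0.81) and Neurod6 and Tbr1 (0.78). Cux1 and Cux2 reached 0.63, and the lowest r was that of Bcl11b and Cux1 (-0.70).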

How the data were processed

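Tissue sections were fixed with methanol, stained and imaged, and probe pairs were hybridised, ligated and moved to the slide by a CytAssist instrument, as the labels' protocols describe. Deposited were whole-number counts of UMIs per gene and spot, made by the authors with Space Ranger 3.1.1 per the file headers, on mm10 per the submitters' processing notes. The matrix, barcode and feature files of both samples are identical, so they were used once.

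Spots marked as tissue in the WT position list with at least 500 UMIs were kept (2485 of 2487). They were clustered with scanpy 1.11.5 (2000 variable genes, 30 principal components, 15 neighbours, Leiden resolution 1), leaving out the 9 factors and 42 other transcription factors. Regions were called cortical, subcortical or granule cell when 5 or more markers of the class stood at a log2 fold of 1 or higher over the remaining spots, and outnumbered those of the other classes. This rule was set after the clusters were seen. Neither a doublet caller nor a deconvolution was used.

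Levels are counts summed over spots, per 1000000 (CPM). Ratios carry exact conditional intervals for 2 Poisson counts and mean depths a normal interval from counting error, in genes with at least 100 counts over both sides for any count of calls. A count of 0 was set to 3 counts. The interval function was tested on simulated data. TMM factors came from edgeR 4.0.16 in R 4.3.3. The factors, lists and regions compared were chosen with earlier results of these data known. No value columns were left unmapped. Named genes are the 9 factors, the 4 highest and 4 lowest other factors per comparison and the 3 genes most alike. Some genes that this rule or the naming of regions would give are not reported here.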

Additional observations from a re-analysis of the deposited data

Results flagged for a closer look

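The array has 235 barcodes with counts outside the tissue mark of the WT list, which enter only the alternative that takes levels over all barcodes with counts. They held 697435 UMIs, with a median of 2507, and 173 of them touch a used spot. There Neurod2 had 103 UMIs, Cux1 100, Cux2 24, Foxp2 13, Neurod6 7 and Neurod1 5, each above the 3 counts set as a floor. In this order their levels were 148, 143, 34.4, 18.6, 10.0 and 7.17 CPM. Pooled subcortical spots had 133, 128, 16.2, 18.3, 14.7 and 3.03 CPM. How these counts relate to levels within the tissue was not tested. They were listed because they are signal in places outside the main measurement, and no sample without tissue was at hand to compare with.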

How the results depend on the processing

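Main counts were 6 factors past 2-fold in granule cell spots, 6 in subcortical spots and 4 between shallow and deep cortex. A further main count was 20 pairs below independence, for which no share over pairs of other genes is at hand. With the Slc18a3/Cartpt region alone as subcortical, 3 factors were past 2-fold. These were Neurod2, Neurod6 and Fezf2, each with 0 UMIs set to 3 counts, which are 22.5 CPM in its 18 spots. Tbr1, also at 0 UMIs there, had 31.7 CPM in cortex, so that its ratio could not reach 2-fold. Between shallow and deep cortex, 7 were past it with at least 20 counts and 1 in the lower array columns only. Without thinning, 11 pairs lay below independence. The lower minimum tests more factors; the cause of the others was not tested. In the lower columns Cux1 and Fezf2 passed the count minimum and had smaller ratios. Under the other alternatives these counts stayed within 1.5 times the main value, and no ratio past 2-fold was reversed. Single ratios moved beyond their interval in 7 of 56 cases for granule cell spots, 36 of 93 for subcortical spots and 11 of 33 for depth, and mean depths in 18 of 36. The order by depth had 36 of 36 pairs alike with depth from marker genes and in higher array columns, 29 in lower columns, and 32 with the Penk/Adam33 region added. The Penk/Adam33 and Tshz2/Pirt regions as cortex, and subcortical spots over 5 steps away, were alternatives added after seeing the data. The region of highest level was the same in each clustering and scaling tried for Neurod1, Neurod2, Bcl11b, Cux1, Cux2 and Fezf2, and varied for Neurod6, Tbr1 and Foxp2. Depth limits Bcl11b (75 UMIs) and Foxp2 (180 UMIs) most. No paired analysis was possible because the samples share 1 library.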
